A study of Mus musculus with 18 samples.

Results

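Naive CD4+ T cells of mice were compared for 35 genes of amino acid transport, serine synthesis, one-carbon metabolism, the methionine cycle, polyamine synthesis and transamination. The genes were taken as a list by symbol, and all 35 were found among the 15137 gene symbols of the RNA sequencing table. A minimum level was set as a linear value of at least 10 in at least 3 libraries. Of the list, 34 genes passed it, as did 10877 genes of the table. Slc7a7, a light chain that carries cationic amino acids out of cells, was the gene below it, with log2 values of 2.37 to 2.79 over all libraries.

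The cells came from C57BL/6J spleens and were sorted as CD3+, CD4+, CD62L+, CD25- and CD44-. Each of 6 groups held 3 libraries, 18 in all. Creld1 cKO mice lack Creld1 in T cells through CD4-Cre, a recombinase driven by the Cd4 promoter, which is active from the CD4+CD8+ thymocyte stage onward, and they were set against control mice. The sources used here do not say whether the control mice carry the Cre, which part of Creld1 was removed, or the age and sex of the mice. For each genotype the cells were profiled fresh, after 8 h of culture without stimulus (unstimulated), or after 8 h with antibodies to CD3 and CD28 at 1 µg/ml (stimulated). Both cultures were in IMDM with serum, added glutamine and β-mercaptoethanol. The labels give the same mouse number to all libraries of a group and state no separate animals, so p-values measure only the spread between libraries, which may be technical.

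Amino acids enter T cells through transporters of the SLC families. System L exchangers bring in leucine and other large neutral amino acids, ASC exchangers carry serine and glutamine, and System A carriers pull in glutamine and alanine with sodium. Serine made from a glycolytic intermediate, or imported, feeds folate-bound one-carbon units to nucleotide synthesis and to methionine. Methionine becomes S-adenosylmethionine, which supplies methyl groups and, after decarboxylation, the aminopropyl groups of the polyamines spermidine and spermine. These pathways are known to be raised as a T cell is activated and enlarges before it divides.

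Promoters are shown for the 4 genes that fell in culture in both genotypes and kept the call whichever library was left out, as described below. The windows, taken from RefSeq for GRCm38.p6, run from 250 bases before to 50 bases after an annotated transcript start. Where a gene had more than 1, the window nearest the 5′ end of the gene in GENCODE was taken. That end lies well upstream of the window for Psat1 (chr19:15947337) and Mthfd2 (chr6:83325908). Of the 35 genes 30 had a window, and Slc7a5, Slc1a5, Slc6a6, Slc38a1 and Srm had none. They lie at chr12:17544623-17544922 on the plus strand for Odc1, chr15:96699679-96699978 on the minus strand for Slc38a2, chr19:15925010-15925309 on the minus strand for Psat1, and chr6:83317555-83317854 on the minus strand for Mthfd2. Capitals mark matches on either strand to the GC box GGGCGG or the CCAAT box CCAAT. The sequences are given 5′ to 3′ along the gene.
Odc1: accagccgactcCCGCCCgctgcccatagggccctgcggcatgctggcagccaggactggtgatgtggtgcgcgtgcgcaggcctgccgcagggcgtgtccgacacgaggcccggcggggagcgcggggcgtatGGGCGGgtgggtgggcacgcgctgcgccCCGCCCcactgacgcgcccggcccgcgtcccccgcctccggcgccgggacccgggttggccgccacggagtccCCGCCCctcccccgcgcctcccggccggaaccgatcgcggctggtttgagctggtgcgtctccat
Slc38a2: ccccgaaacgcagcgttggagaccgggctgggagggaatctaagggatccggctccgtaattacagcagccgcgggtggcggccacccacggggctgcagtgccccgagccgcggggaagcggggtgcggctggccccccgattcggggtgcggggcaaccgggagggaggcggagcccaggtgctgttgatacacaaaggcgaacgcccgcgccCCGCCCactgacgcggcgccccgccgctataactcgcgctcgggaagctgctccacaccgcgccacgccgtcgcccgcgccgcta
Psat1: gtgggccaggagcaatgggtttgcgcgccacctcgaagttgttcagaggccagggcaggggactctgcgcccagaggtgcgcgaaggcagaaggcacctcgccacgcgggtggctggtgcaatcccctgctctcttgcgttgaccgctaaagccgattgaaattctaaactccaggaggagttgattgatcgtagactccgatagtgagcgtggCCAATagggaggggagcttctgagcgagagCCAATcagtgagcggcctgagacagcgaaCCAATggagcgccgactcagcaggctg
Mthfd2: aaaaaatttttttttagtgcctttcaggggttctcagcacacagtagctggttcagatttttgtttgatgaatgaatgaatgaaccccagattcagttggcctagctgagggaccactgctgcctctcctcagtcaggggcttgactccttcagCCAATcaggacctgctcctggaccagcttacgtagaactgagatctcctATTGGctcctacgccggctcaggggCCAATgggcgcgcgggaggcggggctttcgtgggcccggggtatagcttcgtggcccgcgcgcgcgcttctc

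Odc1 held 4 GC boxes and Slc38a2 held 1, whereas Psat1 and Mthfd2 each held 3 CCAAT boxes. The GC box was present in 21 of the 30 windows (70.0%), against 35.7% of all 32851 mouse windows, and the CCAAT box in 17 of the 30 (56.7%), against 37.4%. An E-box, CACGTG, the letters bound by Myc, stood in the windows of Slc36a1 and Sms (6.67%), against 7.15% of all windows. The composite TGATGNAA, known for binding of the stress-response factor Atf4, stood in those of Slc1a4, Slc7a7 and Got1 (10.0%), against 3.97%. None of the 4 motifs contains another, although a CCAAT box read on the opposite strand can share its end with a GC box. Each member entered with 1 window, whereas the 32851 windows count every window and are not limited to tested genes. The shares are thus of unlike sets, and whether they differ for like sets was not tested. These matches describe letters in a window and do not show binding.

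Values are the deposited log2 levels, which are normalized between libraries but not for gene length, so levels are not compared between genes. The sum of the linear values lay between 6782465 and 7419367 per library, and the number of reads is unknown. Creld1 averaged 0.62 ± 0.13 (SE) log2 units lower in cKO than in control libraries over the conditions (limma adjusted p = 0.344), from 3.70 to 4.62 in cKO libraries and from 4.33 to 5.40 in control libraries. The 2 sets of libraries were apart in unstimulated culture and overlapped in fresh and in stimulated cells. The marker genes Cd3e, Cd3d and Cd4 stood between 11.27 and 13.44. Of markers of other cells, Csf1r, Gzmb and Ncr1, of myeloid, cytotoxic and natural killer cells, had group means of at most -0.19. Others were detected: group means were 6.28 to 6.56 for Cd8b1 of CD8 T cells, 4.05 to 5.21 for Itgam and 4.46 to 5.19 for Cd68 of myeloid cells, and 3.83 to 4.76 for Cd79a of B cells. Of regulatory T cell markers, Foxp3 had group means of 5.61 to 6.05 and Ikzf2 of 6.39 to 7.28. Their linear sum was higher in every cKO than in every control library of the same condition. It was 193 to 250 against 179 to 184 in fresh cells. In unstimulated cells it was 163 to 191 against 125 to 156, and in stimulated cells 165 to 171 against 135 to 147. Ikzf2 averaged 7.28, 6.93 and 6.75 in fresh, unstimulated and stimulated cKO cells, against 6.87, 6.39 and 6.52 in control cells. Foxp3 averaged 6.05 against 6.02 in fresh, 5.83 against 5.83 in unstimulated and 5.91 against 5.61 in stimulated cells. So in fresh and unstimulated cells the higher sum came with Ikzf2 and hardly with Foxp3. Whether the sum bears on the genotype comparisons was not tested. Egr2, induced by the T cell receptor, averaged 8.43 and 8.30 in stimulated cKO and control cells, against 7.05 and 7.16 in unstimulated cells. A property of the libraries varied within and between groups. The slope of the log2 values on the GC content of transcripts was 0.16 in fresh cKO replicate 3, against -0.20 and -0.32 in the other fresh cKO libraries. The slope also separated the unstimulated groups, at -0.13, -0.07 and -0.19 in cKO libraries and 0.07, 0.16 and 0.25 in control libraries. Results are given without adjustment for that slope, and the calls that differ with it are given beside them.

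**Figure D1:**
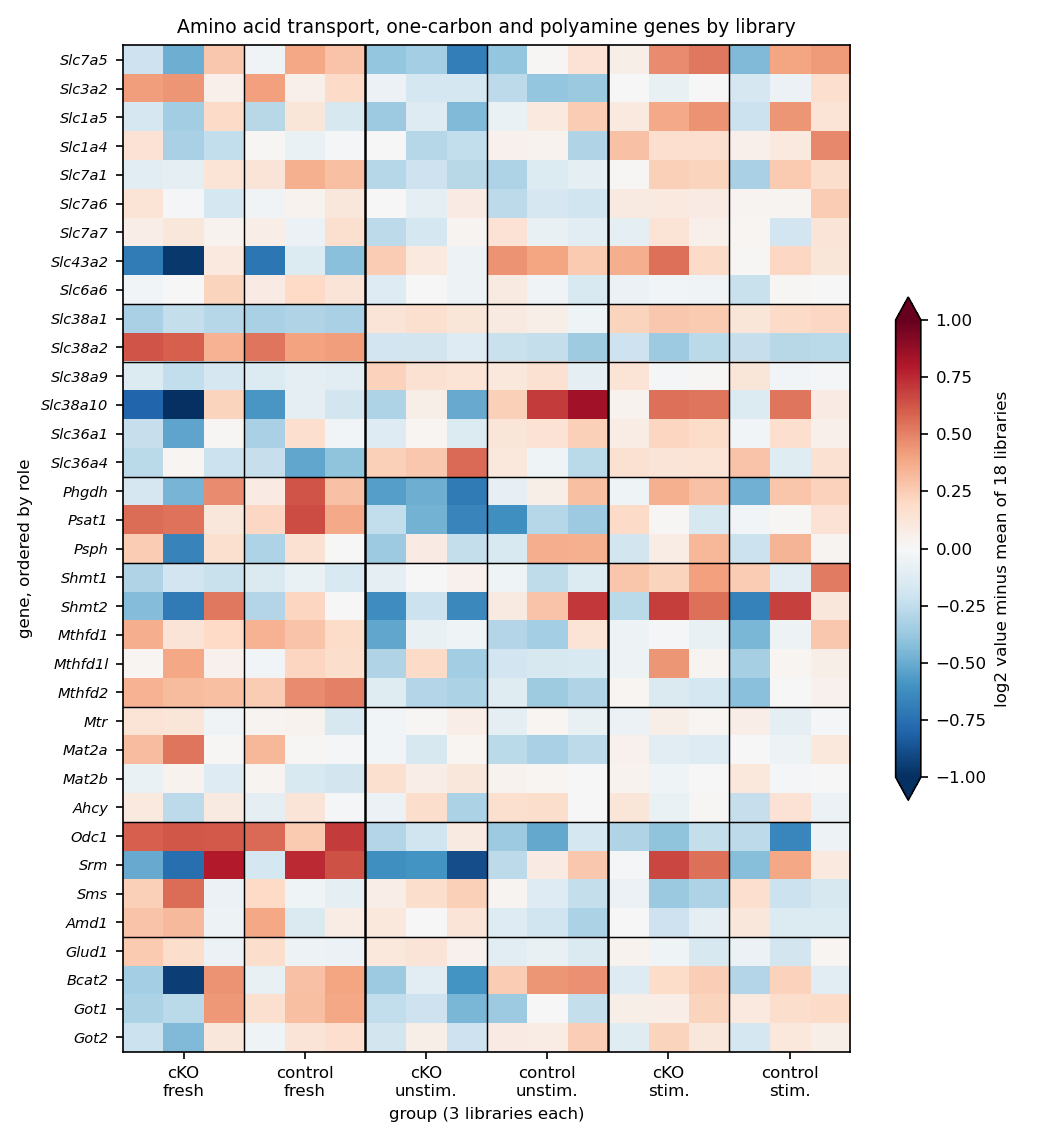
Log2 value of each of the 35 genes (rows, ordered by role) in each of the 18 libraries (columns, 3 per group), as the difference from the gene's mean over all libraries. Odc1 and Slc38a2 are red in all 6 fresh libraries and mostly blue after culture, Slc38a1 shows the opposite, and the columns of a group differ for Srm, Shmt2, Slc38a10 and Bcat2.

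After 8 h of unstimulated culture, against fresh cells, Odc1 of polyamine synthesis, Psat1 of serine synthesis, Mthfd2 of folate metabolism and Mat2a of the methionine cycle fell in both genotypes, each the only called gene of its group in the unadjusted fit, and transporters moved in both directions. In cKO cells 4 of the 34 genes rose and 6 fell, where 22.1% of all tested genes were called, 10.7% higher and 11.4% lower. In control cells 3 rose and 9 fell, where 29% of all tested genes were called, 14.9% higher and 14.1% lower. The 10 and 12 called genes were 29.4% and 35.3% of the 34, shares near those over all genes. Libraries without overlap were common in these comparisons. In cKO cells 15.8% of all tested genes lay wholly higher and 16.1% wholly lower, and 5 and 8 of the members. In control cells the shares were 25.8% and 22.9%, and the members 3 and 12. The median difference of the 34 was -0.10 in cKO and -0.13 in control cells, beside -0.02 and 0.04 over all genes tested. In bulk RNA, fewer cells of a type and less RNA per cell cannot be told apart.

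Odc1, ornithine decarboxylase, which sets the rate of polyamine synthesis, had log2 values of 10.20, 10.30 and 10.59 in unstimulated cKO cells, against 11.09, 11.11 and 11.11 in fresh cKO cells. Control cells had 10.13, 9.98 and 10.32 unstimulated, against 11.06, 10.76 and 11.19 fresh. All 6 unstimulated libraries were below all 6 fresh ones. The level fell by 40.3% in cKO cells (log2 difference -0.74 ± 0.14 SE, limma adjusted p = 0.00165) and fell by 44.9% in control cells (-0.86 ± 0.14, adjusted p = 0.000463). The other polyamine enzymes did not pass the test. Srm, spermidine synthase, differed by -0.55 ± 0.35 in cKO and -0.38 ± 0.35 in control cells (95% intervals -1.28 to 0.19 and -1.11 to 0.36). Sms, spermine synthase, and Amd1, S-adenosylmethionine decarboxylase, lay between -0.32 and -0.08 in both genotypes. Amd1 has a near-identical copy, Amd2, with which it may share reads, so its values are uncertain.

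Slc38a2, a System A carrier of glutamine and alanine, had 11.40, 11.41 and 11.46 in unstimulated cKO cells, against 12.22, 12.19 and 11.94 in fresh cKO cells. The control values were 11.37, 11.36 and 11.24 unstimulated, against 12.13, 11.998 and 12.01 fresh. It was lower in every cultured library. The level fell by 38.1% in cKO cells (-0.69 ± 0.08, limma adjusted p = 1.12e-05) and fell by 39.4% in control cells (-0.72 ± 0.08, adjusted p = 6.62e-06). Slc38a1, the other System A carrier on the list, moved in the opposite direction. It had 10.75, 10.78 and 10.75 in unstimulated against 10.30, 10.39 and 10.34 in fresh cKO cells, and 10.71, 10.69 and 10.58 in unstimulated against 10.30, 10.32 and 10.30 in fresh control cells. The libraries did not overlap, and the rise was 33.8% in cKO cells (0.42 ± 0.06, limma adjusted p = 7.44e-05) and 27.7% in control cells (0.35 ± 0.06, adjusted p = 0.000294).

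Psat1, the aminotransferase at the middle step of serine synthesis, had 6.85, 6.63 and 6.44 in unstimulated cKO cells, against 7.65, 7.64 and 7.21 in fresh cKO cells. In control cells the values were 6.49, 6.82 and 6.74 unstimulated, against 7.30, 7.75 and 7.48 fresh. Cultured and fresh libraries were again apart, and the differences were -0.86 ± 0.16 in cKO cells (limma adjusted p = 0.000905) and -0.83 ± 0.16 in control cells (adjusted p = 0.00104). The enzymes on either side of it did not pass the test. Phgdh, which opens the pathway, differed by -0.53 ± 0.23 in cKO and -0.24 ± 0.23 in control cells, and Psph, which closes it, by -0.09 ± 0.24 and 0.24 ± 0.24.

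Mthfd2, the mitochondrial enzyme that oxidizes one-carbon units on folate, had 7.26, 7.09 and 7.07 in unstimulated cKO cells, against 7.74, 7.70 and 7.69 in fresh cKO cells. It had 7.27, 7.04 and 7.08 in unstimulated control cells, against 7.64, 7.86 and 7.89 in fresh control cells. The fall was -0.57 ± 0.12 in cKO cells (limma adjusted p = 0.0033) and -0.67 ± 0.12 in control cells (adjusted p = 0.00084), with no overlap between libraries. The other folate enzymes did not pass. Mthfd1, the cytosolic enzyme of the same steps, was at -0.44 ± 0.17 and -0.43 ± 0.17, and Mthfd1l, which releases formate in mitochondria, at -0.30 ± 0.16 and -0.29 ± 0.16 in cKO and control cells. The serine hydroxymethyltransferases Shmt1, in the cytosol, and Shmt2, in mitochondria, lay between -0.29 and 0.39. In the methionine cycle, Mat2a, the catalytic subunit that makes S-adenosylmethionine, fell by 0.34 in cKO and 0.39 in control cells on the log2 scale (SE 0.12 each, limma adjusted p = 0.045 and 0.0188). Its regulatory subunit Mat2b, methionine synthase Mtr and the hydrolase Ahcy lay between -0.06 and 0.17 without passing.

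Among the System L genes the heavy chain fell and an alternative carrier rose. Slc3a2, the CD98 heavy chain that brings Slc7a5 to the membrane, had 9.50, 9.38 and 9.38 in unstimulated against 9.97, 10.00 and 9.60 in fresh cKO cells, and 9.29, 9.17 and 9.19 in unstimulated against 9.97, 9.61 and 9.75 in fresh control cells. The differences were -0.44 ± 0.11 in cKO cells (limma adjusted p = 0.011) and -0.56 ± 0.11 in control cells (adjusted p = 0.00193). Slc7a5 itself, the leucine carrier of that pair, differed by -0.33 ± 0.24 and -0.28 ± 0.24 without passing. Slc43a2, a System L carrier that works without the heavy chain, had 9.38, 9.22 and 9.08 in unstimulated against 8.43, 8.17 and 9.23 in fresh cKO cells, where the third fresh library overlapped the cultured ones. In control cells it had 9.58, 9.53 and 9.39 unstimulated against 8.41, 8.99 and 8.71 fresh, with no overlap. The rise was 0.62 ± 0.21 in cKO cells (limma adjusted p = 0.0406) and 0.80 ± 0.21 in control cells (adjusted p = 0.00925). Slc7a1, the main carrier of arginine and lysine, fell in control cells by 0.44 (SE 0.13, limma adjusted p = 0.0172), as did Slc7a6, another partner of the heavy chain, by 0.25 (SE 0.09, adjusted p = 0.0413), and in cKO cells they were at -0.23 ± 0.13 and 0.01 ± 0.09. The ASC exchangers Slc1a5 and Slc1a4 and the taurine carrier Slc6a6 lay between -0.20 and 0.20 and did not pass.

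The 4 transporters of lysosomes and other inner membranes had positive differences in both genotypes, and 2 of them passed in cKO and 1 in control cells. Slc38a9, the lysosomal arginine sensor upstream of mTORC1, rose by 0.36 ± 0.08 in cKO cells (limma adjusted p = 0.00306), and Slc36a4, a proton-coupled carrier, by 0.52 ± 0.13 (adjusted p = 0.0108). In control cells the 2 were at 0.16 ± 0.08 and 0.32 ± 0.13. Slc38a10, an SLC38 family member, rose by 0.88 ± 0.29 in control cells (limma adjusted p = 0.0352) and was at 0.34 ± 0.29 in cKO cells. Slc36a1, a lysosomal exporter of small amino acids, was at 0.17 ± 0.13 and 0.23 ± 0.13. Of the enzymes that move amino groups, Got1, the cytosolic aspartate aminotransferase, fell in control cells by 0.48 (SE 0.16, limma adjusted p = 0.0333) and was at -0.25 ± 0.16 in cKO cells. Glud1, which links glutamate to the citric acid cycle, Bcat2, the mitochondrial branched-chain aminotransferase, and Got2, the mitochondrial partner of Got1, lay between -0.13 and 0.18.

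**Figure D2:**
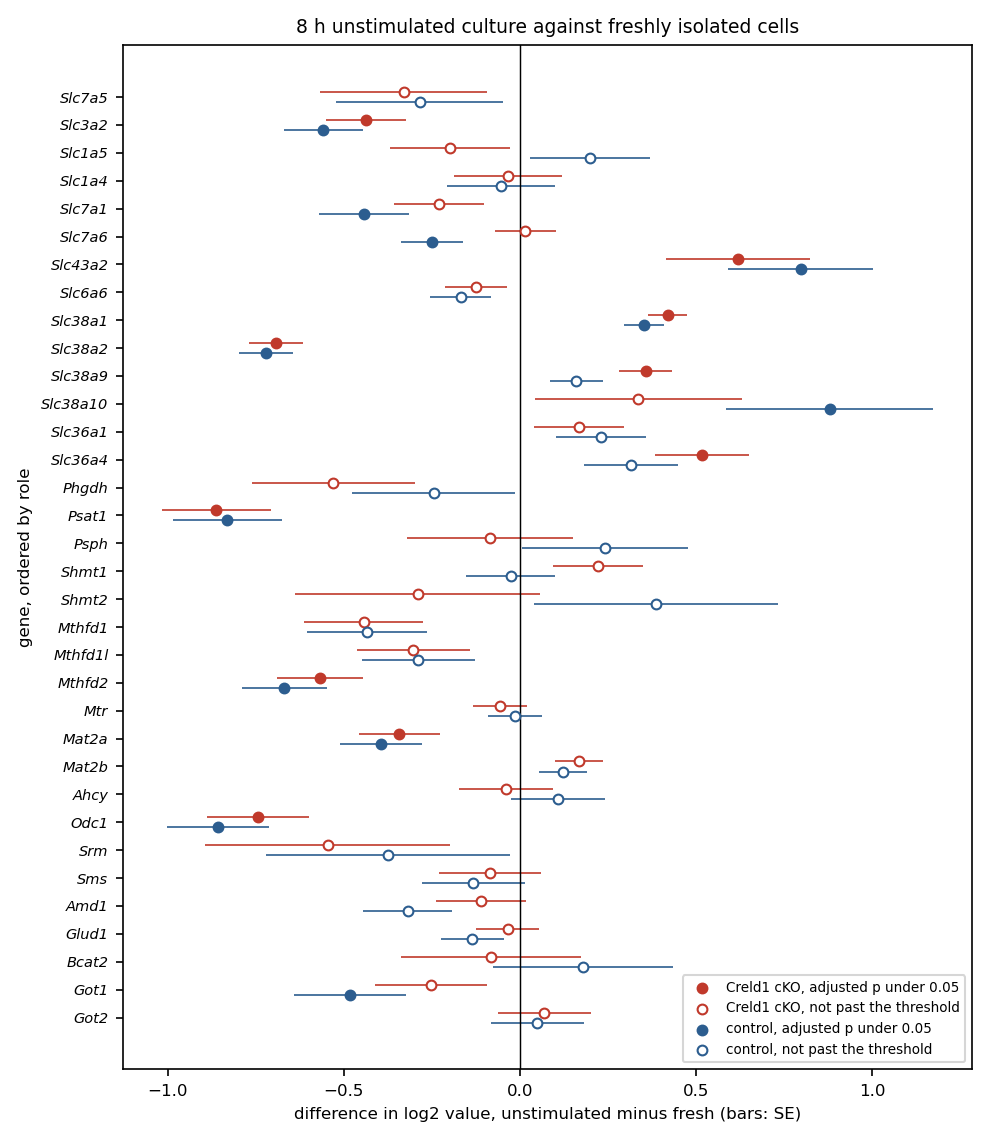
Difference in log2 value, unstimulated minus fresh, of the 34 tested genes in cKO (red, upper mark) and control cells (blue, lower mark); bars are standard errors and filled marks passed the threshold. Odc1, Psat1, Slc38a2, Mthfd2, Slc3a2 and Mat2a lie left of 0 and Slc43a2 and Slc38a1 right of 0 with filled marks in both genotypes.

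The calls of Odc1, Slc38a2, Psat1, Mthfd2 and Slc38a1 were kept in both genotypes on leaving out any library and on fitting only the groups compared. With only the groups compared, Slc3a2, Slc43a2, Slc38a9, Slc36a4 and Mat2a lost the call in cKO cells. Slc3a2 also lost it there without fresh cKO replicate 1 (-0.38, limma adjusted p = 0.0517), Slc36a4 without unstimulated cKO replicate 3 (0.41, adjusted p = 0.0619), and Slc43a2 and Mat2a without any of fresh cKO replicates 1 and 2 or of the unstimulated cKO libraries (down to 0.40 and -0.22). The cKO call of Mat2a was also lost with median-of-ratios scaling (limma adjusted p = 0.0736), quantile normalization (0.126), no filter (0.0573) and no trend (0.0581). In control cells Slc43a2 lost it without fresh replicate 1 (0.65), Mat2a without that library (-0.28) or unstimulated replicate 2, Slc38a10 without fresh replicates 1 or 3 or unstimulated replicates 2 or 3 (0.73 to 0.93), and Slc7a1 without fresh replicates 2 or 3 or unstimulated replicate 1 (-0.43 to -0.38). Got1 lost it without fresh replicates 2 or 3 or unstimulated replicates 1 or 3 (-0.47 to -0.40), and Slc7a6 without any 1 of the 6 control libraries compared (-0.29 to -0.21) and with only the groups compared. Without fresh cKO replicate 3, Slc43a2 stood at 0.93 in cKO cells and Slc38a10 was called there too, at 0.74 (limma adjusted p = 0.0258), where 30.6% of all genes were called. The fits to only the groups compared called 5 members in cKO cells, among 7.7% of all genes, and 12 in control cells, among 30.4%. After adjustment for the GC slope 7 genes rose and 12 fell in cKO cells, where 45.4% of all genes were called, and 6 rose and 14 fell in control cells, where 42.8% were called. Srm was then among the falls in both, at -0.51 ± 0.09 in cKO cells (limma adjusted p = 0.000106) and -0.91 ± 0.09 in control cells (adjusted p = 3.41e-07), as were Phgdh (-0.51 and -0.57), Slc7a5 (-0.31 and -0.60), Mthfd1 (-0.44 and -0.48) and, newly in cKO cells, Slc7a1 (-0.22) and Slc1a5 (-0.18). Slc6a6 was a further fall in control cells (-0.23). Rises gained by the adjustment were Slc38a10 (0.37) and Slc36a1 (0.18) in cKO cells, Slc36a4 (0.44) and Slc38a9 (0.18) in control cells, and Mat2b in both (0.16 and 0.19).

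The same step changed other genes. Cd69, an early surface marker of activation, averaged 9.62 and 9.41 in unstimulated cKO and control cells, against 11.45 and 11.35 in fresh cells, and the summed linear level of 5 activation markers was 1408 to 1609 and 1377 to 2091, against 4233 to 6141 and 4327 to 5012. Cd69 and Nr4a1 carried that sum, and Nr4a1 averaged 9.01 and 9.71 in unstimulated cKO and control cells, against 10.66 and 10.77 in fresh cells. The averages of Egr2 were 7.05 and 7.16 in unstimulated cells, against 6.86 and 6.86 in fresh cells, and Il2ra averaged 5.95 in unstimulated against 6.14 in fresh control cells. Markers of myeloid cells summed to 47.0 to 55.4 and 45.9 to 52.5 in unstimulated cKO and control libraries, against 66.1 to 91.7 and 76.0 to 82.4 in fresh ones, out of 5 genes of which Csf1r and Adgre1 were at or near 0. The part of these markers in the results was not tested.

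A list of 114 further genes of the same pathways, 79 of them tested, gave 12 rises and 9 falls in each genotype, 26.6% of the 79, where 22.1% and 29% of all genes were called in cKO and control cells. Adjusted for the GC slope, it gave 36 calls in cKO and 31 in control cells (45.6% and 39.2%, where 45.4% and 42.8% of all genes were called). With only the groups compared it gave 9 in cKO cells, where 7.7% of all genes were called. Atf4, the factor that induces Psat1, Mthfd2 and transport genes under amino acid stress, had 9.70, 9.83 and 9.73 in unstimulated cKO cells, against 10.79, 10.80 and 11.12 in fresh cKO cells. In control cells it had 9.91, 9.98 and 10.03 unstimulated, against 10.75, 10.92 and 10.97 fresh. Its libraries did not overlap, and it fell by 1.15 in cKO cells (SE 0.09, limma adjusted p = 3.29e-07) and fell by 0.91 in control cells (SE 0.09, adjusted p = 3.42e-06). Of the 9 regulators tested, Myc was called lower in cKO but not in control cells, with 0 calls of the list in the interaction. Trib3, Nfe2l2 and Sesn1 were called higher in both genotypes. Around Odc1, the antizyme inhibitor Azin1, which protects the enzyme, fell by 0.45 and 0.69 in cKO and control cells (SE 0.13 each, limma adjusted p = 0.0179 and 0.000907). The antizyme Oaz2, which marks the enzyme for destruction, rose by 0.37 and 0.73 (SE 0.12 each, limma adjusted p = 0.0303 and 0.000298). The other antizymes and antizyme inhibitor listed, Oaz1, Oaz3 and Azin2, were not among the called genes in either genotype. Of the 17 further polyamine genes listed, 11 were tested. Stimulated against fresh cells, the same list gave 13 rises and 12 falls in cKO cells (31.6%, where 30.3% of all genes were called) and 10 rises and 7 falls in control cells (21.5%, where 18.8% were called). The cKO count was 39 without fresh cKO replicate 3, where 53.4% of all genes were called, and 6 with only the groups compared, where 7.03% were called. It was 14 and 10 without fresh cKO replicates 1 and 2 and 13 without stimulated cKO replicate 2 or 3. The control count was 9 without stimulated control replicate 1 and 33 after adjustment for the GC slope, where 41% of all genes were called. For the counts given without a share over all genes, no reading as particular to the list is made. Stimulated against unstimulated, the list gave 0 calls in cKO cells and 1 fall, Trib3, in control cells, where 0.285% and 0.349% of all genes were called, and 0 calls in the tests between genotypes. The fall of Trib3 was not called with only the groups compared (limma adjusted p = 0.13) or on leaving out any of 4 control libraries. The fits to only the groups compared gave 20 calls in cKO stimulation and 33 between genotypes in unstimulated culture, where 22.5% and 35.3% of all genes were called. They gave 18 in the stimulation interaction (22.1%). Between genotypes, leaving out fresh cKO replicate 3 gave 7 in fresh cells (11%) and 7 averaged over conditions (14.9%). A block for runs of library numbers gave 10 in unstimulated culture (8.15%). Adjustment for the GC slope gave 1 averaged over conditions (0.0827%).

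**Figure D3:**
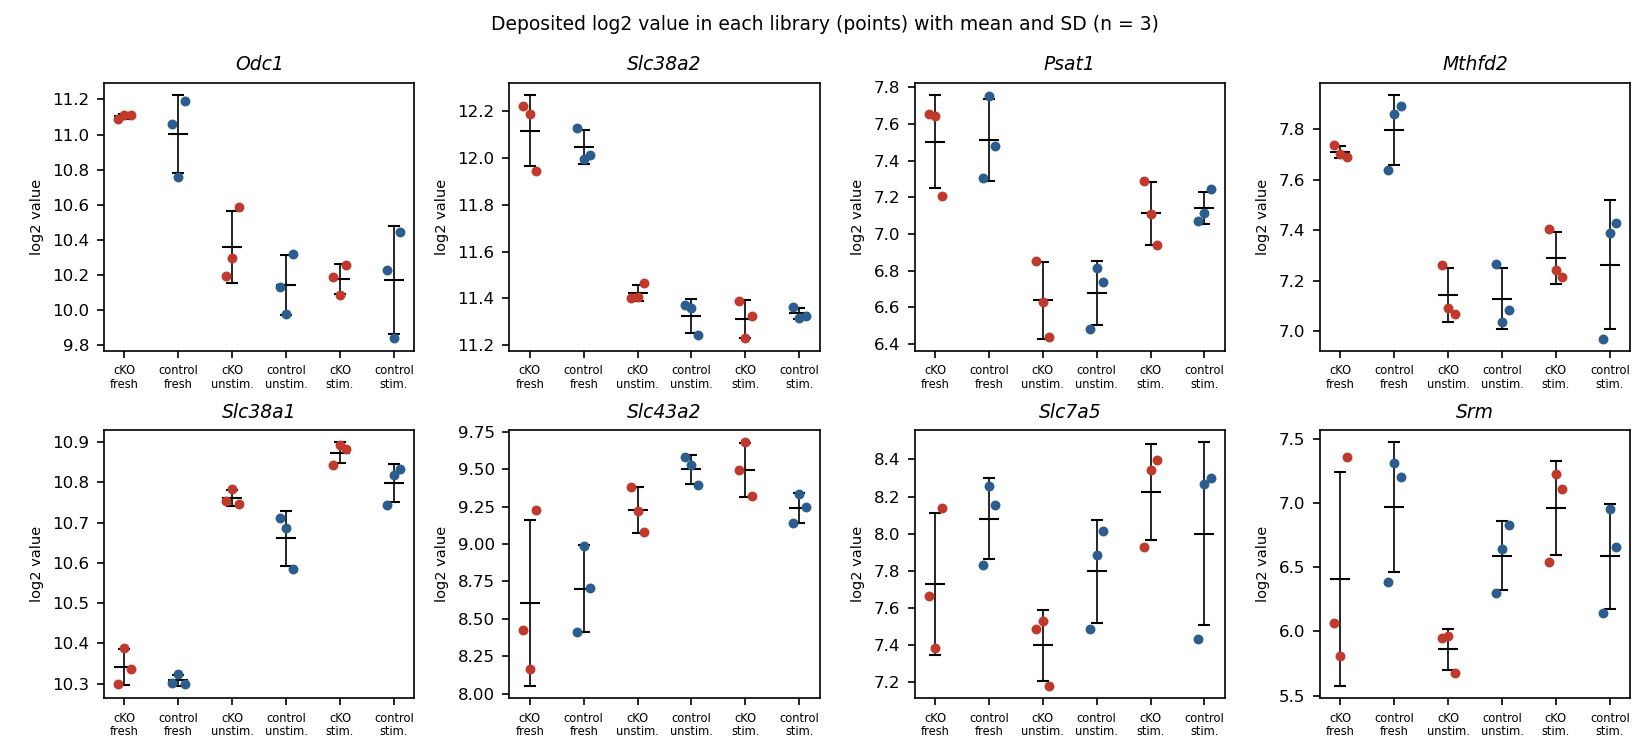
Log2 value in each library (points) for 8 genes in cKO (red) and control (blue) cells that were fresh, unstimulated or stimulated, with the group mean and SD (n = 3). Odc1, Slc38a2 and Mthfd2 stay low and Slc38a1 stays high in both cultures, while Srm spreads from 5.81 to 7.36 among the fresh cKO libraries alone.

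Stimulated culture was also set against fresh cells. The 2 comparisons of cultured with fresh cells share the fresh libraries, so their values are given side by side and not as separate evidence. In cKO cells 6 of the 34 genes rose and 6 fell, where 30.3% of all genes were called, 14.5% higher and 15.7% lower. In control cells 2 rose and 3 fell, where 18.8% were called, 9.58% higher and 9.26% lower. Odc1 had 10.19, 10.09 and 10.26 in stimulated cKO and 10.23, 9.84 and 10.44 in stimulated control cells, all below the fresh values above. It fell by 47.3% in cKO cells (-0.92 ± 0.14, limma adjusted p = 0.000275) and fell by 43.8% in control cells (-0.83 ± 0.14, adjusted p = 0.000785). Slc38a2 had 11.39, 11.23 and 11.32 in stimulated cKO and 11.37, 11.32 and 11.32 in stimulated control cells, at -0.80 ± 0.08 and -0.71 ± 0.08 from fresh (limma adjusted p = 2.67e-06 and 8.94e-06). Slc38a1 had 10.84, 10.89 and 10.88 in stimulated cKO and 10.74, 10.82 and 10.83 in stimulated control cells, at 0.53 ± 0.06 and 0.49 ± 0.06 from fresh (adjusted p = 7.39e-06 and 1.72e-05). Mthfd2 fell in both genotypes too, at -0.42 ± 0.12 in cKO cells (limma adjusted p = 0.0171) and -0.53 ± 0.12 in control cells (adjusted p = 0.00558), although the cKO call was lost without fresh cKO replicate 1 or stimulated cKO replicates 2 or 3 and both were lost with only the groups compared.

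Psat1 was not called against fresh cells once stimulated in the unadjusted fit to all libraries. Its values were 7.29, 7.11 and 6.94 in stimulated cKO and 7.07, 7.11 and 7.24 in stimulated control cells, at -0.39 ± 0.16 and -0.37 ± 0.16 from fresh (limma adjusted p = 0.0679 and 0.115, 95% intervals -0.72 to -0.06 and -0.70 to -0.04). It was called in cKO cells without fresh replicate 3 (-0.54, limma adjusted p = 0.00889), without stimulated replicate 1 (-0.48, adjusted p = 0.0496) and with quantile normalization (-0.51, adjusted p = 0.0337), and in control cells after adjustment for the GC slope (-0.37, adjusted p = 0.0449). The other rises in cKO cells were Slc43a2 at 0.89 ± 0.21, Slc38a10 at 0.96 ± 0.29, Shmt1 at 0.54 ± 0.13, Slc36a1 at 0.41 ± 0.13 and Slc38a9 at 0.22 ± 0.08, and the other falls were Slc3a2 at -0.33 ± 0.11, Mat2a at -0.35 ± 0.12 and Sms at -0.49 ± 0.15. In control cells Slc36a4 rose, at 0.49 ± 0.13 (limma adjusted p = 0.0163). Slc43a2 and Shmt1 were called in cKO cells whichever library was left out. Shmt1 lost the call with quantile normalization (0.40, limma adjusted p = 0.0563), and Slc43a2 with only the groups compared (0.89, adjusted p = 0.0865). Slc38a10, Slc36a1, Slc38a9, Slc3a2, Mat2a and Sms each lost the call without at least 4 of the fresh and stimulated cKO libraries, and Slc36a4 lost it in control cells without fresh replicates 2 or 3 or stimulated replicates 1 or 3 (0.40 to 0.48). The count of called genes in cKO cells was 6 without fresh replicate 1 or 2 and 5 without stimulated replicate 2 or 3. In the same fits, in that order, the further pathway genes gave 14, 10, 13 and 13 calls, against 25 with all libraries. The share over all genes is not set beside these counts, so they are not read as particular to the members. Without fresh cKO replicate 3, 13 genes rose and 9 fell in cKO cells, among 53.4% of all genes called. The fresh cKO libraries left in that fit had the lowest GC slopes of all libraries. With only the groups compared, 4 genes were called in each genotype, among 7.03% of all genes in cKO and 13.6% in control cells. Adjusted for the GC slope, the counts were 7 rises and 4 falls in cKO cells and 7 rises and 10 falls in control cells, where 35.2% and 41% of all genes were called. That adjustment ended the cKO calls of Mat2a (-0.16), Slc36a1 (0.19) and Slc3a2 (-0.19) and added Slc36a4 (0.46) and Mat2b (0.14). In control cells it added Slc43a2 (0.52), Slc38a10 (0.41), Shmt1 (0.34), Slc1a5 (0.21), Mat2b (0.14), Psat1 (-0.37), Srm (-0.42), Phgdh (-0.35), Bcat2 (-0.29), Slc3a2 (-0.23), Slc7a1 (-0.23) and Slc6a6 (-0.21).

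In stimulated against unstimulated culture, which differ by the antibodies, 0 of the 34 genes were called by limma in either genotype. Of all genes 0.285% were called in cKO cells, 0.276% higher and 0.00919% lower, and 0.349% in control cells, 0.313% higher and 0.0368% lower, and at an unadjusted p under 0.05 the members numbered 12 and 7. The largest differences in cKO cells were those of Srm, Slc7a5, Shmt2 and Phgdh. Srm had 6.54, 7.23 and 7.11 in stimulated against 5.95, 5.96 and 5.68 in unstimulated cKO cells, which do not overlap, and 6.14, 6.95 and 6.66 in stimulated against 6.30, 6.64 and 6.83 in unstimulated control cells, which do. The differences were 1.10 ± 0.35 in cKO cells (limma adjusted p = 0.179, 95% interval 0.36 to 1.83) and -0.01 ± 0.35 in control cells (-0.74 to 0.73). Slc7a5 had 7.93, 8.35 and 8.40 in stimulated against 7.49, 7.53 and 7.18 in unstimulated cKO cells, and 7.43, 8.27 and 8.30 in stimulated against 7.49, 7.89 and 8.02 in unstimulated control cells. Its differences were 0.83 ± 0.24 in cKO cells (limma adjusted p = 0.163) and 0.20 ± 0.24 in control cells (adjusted p = 0.684). Again the cKO libraries were apart and the control libraries overlapped.

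Psat1 had every stimulated library above every unstimulated one in both genotypes, with differences of 0.47 ± 0.16 in cKO cells (limma adjusted p = 0.19) and 0.46 ± 0.16 in control cells (adjusted p = 0.27). The libraries of Slc38a1, Slc1a4 and Got1 were apart in the same way, at 0.11 ± 0.06 and 0.14 ± 0.06, 0.38 ± 0.15 and 0.29 ± 0.15, and 0.42 ± 0.16 and 0.35 ± 0.16 in cKO and control cells. In all, 11 of the 34 genes lay wholly higher and 6 wholly lower in stimulated cKO cells, and 7 and 2 in stimulated control cells, where 0.285% and 0.349% of all genes were called. Of all genes tested, 23.9% and 18.4% lay wholly higher and lower in cKO cells and 10.2% and 10.3% in control cells. Mthfd2 was at 0.15 ± 0.12 and 0.14 ± 0.12, Slc38a2 at -0.11 ± 0.08 and 0.01 ± 0.08, and Odc1 at -0.18 ± 0.14 and 0.03 ± 0.14, with 95% intervals for Odc1 of -0.49 to 0.13 and -0.28 to 0.33. The other members ranged from -0.41 (Sms) to 0.82 (Shmt2) in cKO cells and from -0.44 (Bcat2) to 0.37 (Shmt1) in control cells.

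After adjustment for the GC slope 4 genes rose in control cells, where 2.94% of all genes were called, and 0 in cKO cells, where 0.68% were called and 11 members had an unadjusted p under 0.05. The control genes were Slc7a5 (0.50 ± 0.12, limma adjusted p = 0.0305), Slc7a1 (0.36 ± 0.08, adjusted p = 0.0223), Srm (0.49 ± 0.09, adjusted p = 0.00539) and Got1 (0.53 ± 0.11, adjusted p = 0.0097). In cKO cells the same fit gave Slc7a5 0.39 ± 0.13, Slc7a1 0.21 ± 0.09, Srm 0.36 ± 0.10 and Got1 0.17 ± 0.11. For Srm that was a change of sign in control cells and a smaller difference in cKO cells. With only the groups compared, 12 members were called in cKO cells, 11 of them higher, among 22.5% of all genes, and 0 in control cells, among 0.0658%.

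**Figure D4:**
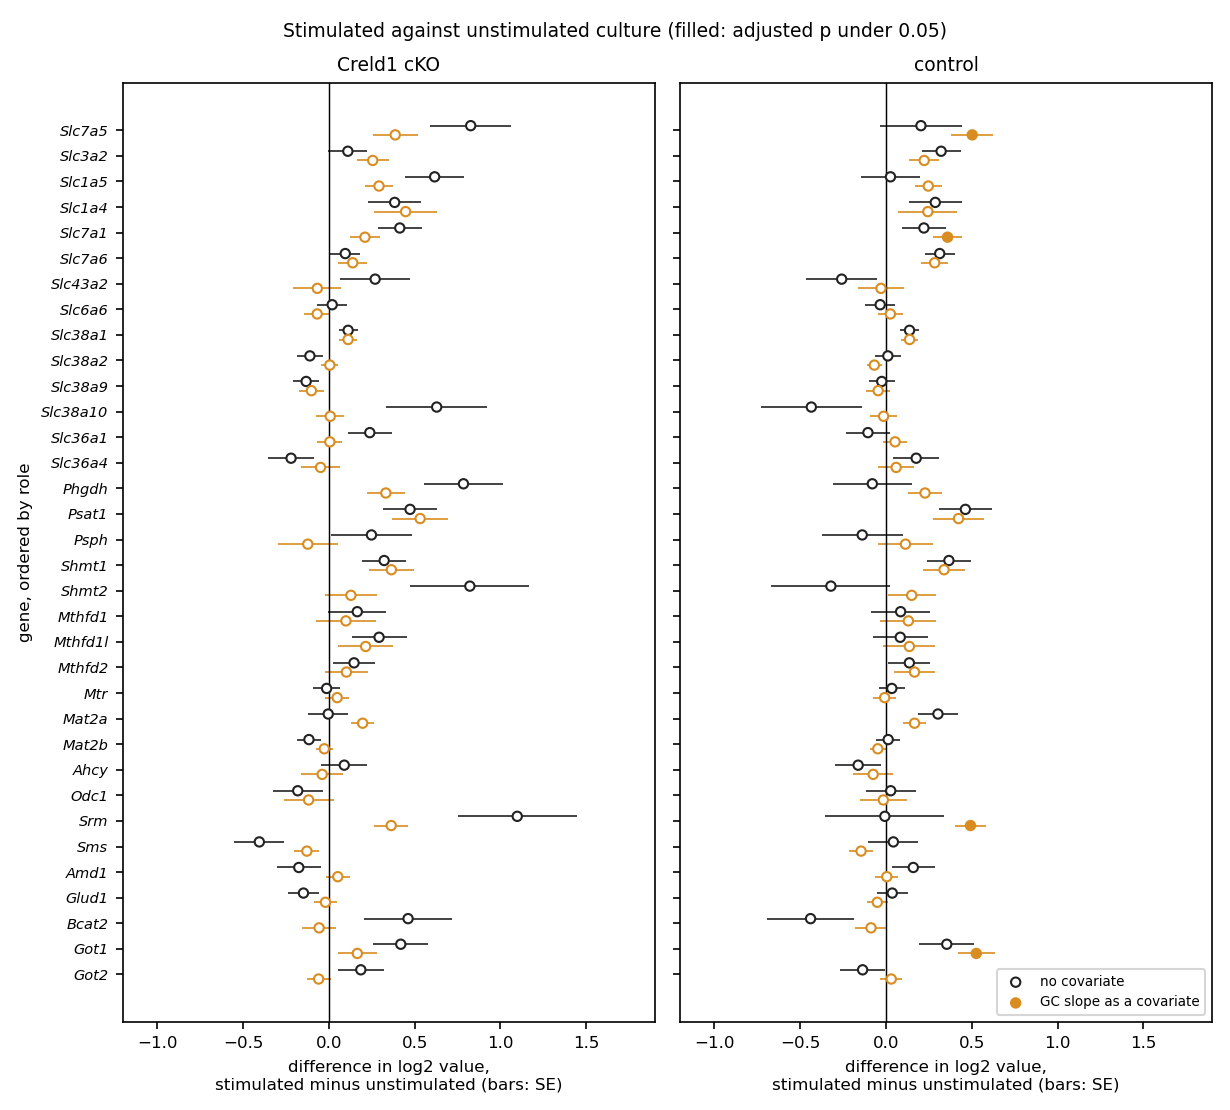
Difference in log2 value, stimulated minus unstimulated, of the 34 tested genes in cKO (left) and control cells (right), unadjusted (black) and adjusted for the GC slope (orange); bars are standard errors and filled marks passed the threshold. Filled marks appear for Slc7a5, Slc7a1, Srm and Got1 in control cells after the adjustment; unadjusted, Srm lies at 1.10 in cKO cells and -0.01 in control cells.

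The difference between genotypes in that effect was tested directly as an interaction, and 0 of the 34 genes were called (0.00919% of all genes, 7 members at an unadjusted p under 0.05). The members of smallest p were Phgdh at 0.86 ± 0.33, Slc38a10 at 1.06 ± 0.42, Bcat2 at 0.90 ± 0.36 and Slc1a5 at 0.59 ± 0.24 (limma adjusted p = 0.166 each). Adjusted for the GC slope, they were at 0.10, 0.02, 0.03 and 0.05. With only the groups compared, 7 members were called among 22.1% of all genes. The corresponding interaction for unstimulated culture also called 0 genes (0% of all genes, 1 member at an unadjusted p under 0.05), with Slc7a6 at 0.26 ± 0.12, Slc38a9 at 0.20 ± 0.11, Slc1a5 at -0.40 ± 0.24 and Shmt2 at -0.68 ± 0.49 (limma adjusted p = 0.843 each). So the unadjusted calls of Slc38a9 and Slc36a4 in cKO cells but not control cells, and of Slc7a1, Slc7a6, Slc38a10 and Got1 in control cells but not cKO cells, were not shown to differ between genotypes. Slc38a9, Slc36a4, Slc38a10 and Slc7a1 were called in both after adjustment for the GC slope.

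Between cKO and control cells, limma called 0 of the 34 genes in fresh, unstimulated or stimulated cells or averaged over them. Of all genes 0.00919%, 0%, 0% and 0.0184% were called in these 4 tests, and 1, 9, 0 and 4 members had an unadjusted p under 0.05. The differences were largest in unstimulated culture, where Shmt2 had 7.54, 7.95 and 7.52 in cKO and 8.26, 8.45 and 8.87 in control cells, a difference of -0.86 ± 0.35 (limma adjusted p = 0.115). Slc38a10 had 8.74, 9.10 and 8.54 in cKO and 9.29, 9.74 and 9.89 in control cells, or -0.85 ± 0.29 (adjusted p = 0.103). Bcat2 had 8.05, 8.30 and 7.81 in cKO and 8.67, 8.86 and 8.87 in control cells, or -0.74 ± 0.26 (limma adjusted p = 0.103). In each of these the 3 cKO libraries lay below the 3 control libraries. In this comparison 28.6% of all tested genes lay wholly lower and 23.5% wholly higher in cKO cells, as did 9 and 10 of the 34 members. Phgdh had 7.32, 7.38 and 7.16 in cKO and 7.79, 7.93 and 8.17 in control cells, or -0.67 ± 0.23 (limma adjusted p = 0.103). Slc36a4 went the other way, with 7.61, 7.64 and 7.93 in cKO and 7.47, 7.32 and 7.10 in control cells, or 0.43 ± 0.13 (limma adjusted p = 0.103).

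The sign of these differences went with the GC content of the transcripts. Of the 21 tested members with a median transcript GC content above 50%, 17 were lower in unstimulated cKO cells, with a median of -0.25, and of the 13 members at or below 50%, 12 were higher, with a median of 0.12. Adjusted for that slope, the medians were 0.07 and 0.00, and Shmt2, Slc38a10, Bcat2 and Phgdh were at 0.03, -0.05, -0.08 and -0.09. The slope itself separated these 2 groups, so within unstimulated culture the genotype and the slope cannot be told apart, and the adjustment rests on the spread of slopes within all groups. With only the unstimulated groups fitted, 14 members were called, 6 higher and 8 lower, among 35.3% of all genes.

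**Figure D5:**
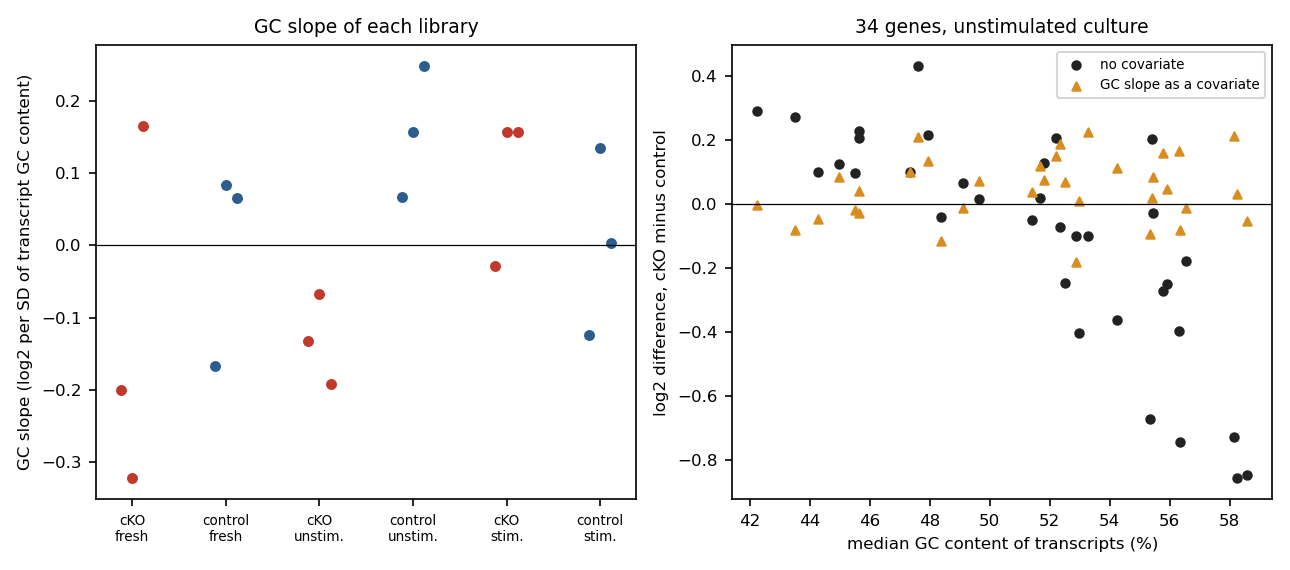
Left, slope of the log2 values on transcript GC content in each library of cKO (red) and control (blue) cells. Right, log2 difference of the 34 genes in unstimulated culture, cKO minus control, against the median GC content of their transcripts, unadjusted (black circles) and adjusted for the slope (orange triangles). The black circles fall to -0.86 at high GC content, and the triangles lie between -0.18 and 0.22.

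In fresh cells the members of smallest p were Slc7a1 at -0.29 ± 0.13, Got1 at -0.33 ± 0.16, Got2 at -0.27 ± 0.13 and Bcat2 at -0.48 ± 0.26 (limma adjusted p = 0.79 each). The calls in fresh cells changed on leaving out the third fresh cKO library. Srm had 6.06, 5.81 and 7.36 in fresh cKO and 6.39, 7.31 and 7.20 in fresh control cells, so that library stood above all others while the 2 other cKO libraries stood below them. Without it 4 members were called lower in fresh cKO cells among 11% of all genes. They were Srm at -1.03, Bcat2 at -0.85, Got1 at -0.57 and Got2 at -0.41 (limma adjusted p = 0.0412, 0.0382, 0.0343 and 0.0462). The fresh cKO libraries then left had the lowest GC slopes of all libraries, and these 4 genes have a transcript GC content above 50%. Averaged over the conditions, Slc36a4 at 0.23 ± 0.08, Bcat2 at -0.36 ± 0.15, Phgdh at -0.29 ± 0.13 and Slc38a1 at 0.07 ± 0.03 had the smallest p (limma adjusted p = 0.463 each). Without the third fresh cKO library 5 members were called among 14.9% of all genes, Glud1 higher and Slc38a10, Bcat2, Phgdh and Got1 lower. Adjusted for the GC slope, 0 members were called in any of these tests, with 3, 0, 0 and 3 at an unadjusted p under 0.05.

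In stimulated cells the 34 differences between genotypes lay between -0.18 and 0.38, with a median of 0.03, and the members of smallest p were Mthfd1l at 0.23 ± 0.16, Slc38a1 at 0.08 ± 0.06, Slc43a2 at 0.26 ± 0.21 and Sms at -0.18 ± 0.15 (limma adjusted p = 0.974 each). Odc1, Slc38a2, Psat1 and Mthfd2, the genes that fell in culture in both genotypes, were at 0.01 ± 0.14, -0.02 ± 0.08, -0.03 ± 0.16 and 0.02 ± 0.12 there.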

How the data were processed

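RNA was sequenced from 18 libraries of sorted naive CD4+ T cells, 3 in each of 6 groups taken from the titles. The labels' protocols give 10 ng of RNA per library, a TruSeq version 2 kit, which does not mark strand, and single reads of 75 bp. From the submitters' processing notes come the names Partek 6.6, HISAT2 2.1.0, CASAVA 1.8, SAMtools 1.4 and DESeq2 and the build mm10, with no role or order. The deposited values, an expression score per gene symbol on a log2 scale, had been normalized by the authors, per the labels; the sources used here do not give the method, and the base was taken from the range of the values. Depth per library is unknown, so no counting interval is given.

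Of 15137 genes, 10877 (71.9%) reached a linear value of 10 or more in at least 3 libraries and were tested. limma 3.58.1 in R 4.3.3 fitted 6 group means to the log2 values (trended empirical Bayes, 12 residual degrees of freedom). The 12 contrasts were tested two-sided with Benjamini-Hochberg adjustment over all tested genes at a threshold of 0.05. Intervals are at the 95% level. The fit was tested on simulated data with independent noise for each gene and library. Those data held no GC slope and no runs of libraries, so that test does not cover their effect on the calls. Coordinates and GC content came from GENCODE M21, with GC content for 99.3% of tested genes and all listed genes. A library's GC slope is that of its log2 values on standardized transcript GC content, and adjusted values come from a fit that holds it as a covariate.

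Alternatives were no filter, a stricter minimum, a pseudocount, median-of-ratios scaling, quantile normalization, only the groups compared, no trend, a block for runs of library numbers, the GC slope, both together, and each library left out in turn. The listed genes, the further pathway genes and the alternatives were chosen with earlier results of these data known. Every listed gene was open to naming. In genotype tests and interactions those past the threshold were named or, where fewer than 4 passed, the 4 of smallest p. Of the further pathway genes, those whose products act on a listed gene and those called in control stimulation were named, and others are said to be chosen after their values were seen. A planned correlation of other genes with Odc1 and Mthfd2 is left out, since fresh and cultured libraries form separate clusters.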

Additional observations from a re-analysis of the deposited data

How the results depend on the processing

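Counts here are of the 34 genes, by limma. With only the groups compared it called 12 in cKO stimulation (22.5% of all genes called), 5 in cKO culture (7.7%) and 4 in stimulated against fresh cKO cells (7.03%). Such fits called 14 between genotypes in unstimulated culture (35.3%) and 7 in the stimulation interaction (22.1%). Adjustment for the GC slope gave 4 in control stimulation (2.94%) and 19 in cKO culture (45.4%). It also gave 20 in control culture (42.8%) and 17 in stimulated against fresh control cells (41%). The replicate block for runs of library numbers gave 2 in cKO stimulation (1.41% of all genes called) and, with the GC slope, 3 in control stimulation (2.22%), 20 in cKO culture (46.1%) and 17 in stimulated against fresh control cells (41.6%). The values do not settle whether the runs pair the libraries. Of 45 same-run pairs 25 correlated above 0.1, and the lowest r was -0.68. The median r was 0.13, against -0.07 for pairs from other runs, and 10 of 18 libraries were closest to their own run. The block alone called 0 members between genotypes in unstimulated culture, where 8.15% of all genes were called, against 0% without it. Leaving out 1 library gave 5 to 22 in stimulated against fresh cKO cells, 0 to 4 between fresh genotypes and 0 to 5 averaged over conditions. The highest counts came without fresh cKO replicate 3, where 53.4%, 11% and 14.9% of all genes were called. The causes were not tested.

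Some differences changed sign, none of them called in the fit without a covariate. Most were small there, but Bcat2 had stood at -0.74 between unstimulated genotypes, and Bcat2 and Slc38a10 at 0.90 and 1.06 in the stimulation interaction. In stimulation against unstimulated culture, the GC slope put Mat2a at 0.20 and Slc38a2 at 0.0051 in cKO cells, and Odc1 at -0.016, Phgdh at 0.23, Shmt2 at 0.15, Slc38a2 at -0.068 and Srm at 0.49 in control cells. The replicate block with the GC slope put Mat2a at 0.23, Odc1 at 0.0015 and Slc38a2 at 0.00064 in cKO cells, and Odc1 at -0.10, Phgdh at 0.22, Shmt2 at 0.11, Slc38a2 at -0.065 and Srm at 0.48 in control cells. That fit also put Bcat2 at 0.029 between unstimulated genotypes, and Bcat2 at -0.11 and Slc38a10 at -0.029 in the stimulation interaction. Quantile normalization put Mat2a at 0.0049 in cKO and Srm at 0.091 in control stimulation, and median-of-ratios scaling put the second of these at 0.018. On leaving out 1 library, control stimulation ranged from -0.11 to 0.19 for Odc1, -0.21 to 0.17 for Phgdh, -0.64 to 0.036 for Shmt2, -0.031 to 0.035 for Slc38a2 and -0.19 to 0.22 for Srm. Mat2a ranged from -0.057 to 0.034 in cKO stimulation and from -0.16 to 0.019 in stimulated against fresh control cells, where Slc36a1 ranged from -0.0077 to 0.24, and Slc7a6 from -0.065 to 0.092 in cKO culture. In all, 2818 of the recomputed values kept direction and side of the threshold, 343 lost a call, 71 gained one and 40 changed sign.

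Depth is unknown, and the labels do not state separate animals, so the spread between mice is not known to be covered. The 3 libraries per group limit the precision of all differences. Of the technical properties of the libraries, the GC slope and the scale were examined, and read depth and RNA quality were not tested.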

Other observations

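Other genes of the same pathways, chosen here after their values were seen, moved in culture as well. Unstimulated against fresh, Slc16a10, a carrier of aromatic amino acids, was at -0.72 ± 0.13 in cKO and -0.76 ± 0.13 in control cells (limma adjusted p = 0.000939 and 0.000506). Atic, which closes purine synthesis with a folate-bound one-carbon unit, was at -0.62 ± 0.09 and -0.53 ± 0.09 (limma adjusted p = 0.000112 and 0.000395). The methionine salvage enzyme Mtap, the mitochondrial serine carrier Sfxn1 and the aspartate-glutamate carrier Slc25a12 also fell in both genotypes. Sfxn3, a relative of Sfxn1, rose by 0.72 ± 0.10 and 0.86 ± 0.10 (limma adjusted p = 7.07e-05 and 1.04e-05), and Gclc, which starts glutathione synthesis, by 0.58 ± 0.10 and 0.47 ± 0.10 (adjusted p = 0.000488 and 0.00208). Nfe2l2, the factor that induces glutathione genes, Amt of the glycine cleavage system, the lysosomal cystine carrier Ctns and the leucine sensor family member Sesn1 rose in both genotypes.

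Trib3, an Atf4 target that inhibits Atf4, was called by limma in control stimulation, with 6.04, 5.96 and 5.61 in stimulated against 6.61, 7.04 and 7.30 in unstimulated control cells (-1.12 ± 0.21, adjusted p = 0.0316). The call was lost without unstimulated control replicate 2 or 3 or stimulated control replicate 2 or 3 (-1.16 to -0.96, limma adjusted p = 0.117 to 0.236) and with only the groups compared (adjusted p = 0.13). Its cKO values were 6.12, 6.47 and 6.21 stimulated against 6.12, 6.26 and 5.77 unstimulated, and it was not called in the interaction. Unstimulated against fresh, it rose by 0.81 ± 0.21 in cKO cells (limma adjusted p = 0.0117) and by 1.77 ± 0.21 in control cells (adjusted p = 2.34e-05). Bcat1, the cytosolic branched-chain aminotransferase, also chosen after its values were seen, had 4.01, 3.78 and 4.22 in stimulated against 3.78, 2.89 and 2.25 in fresh cKO cells, and 3.70, 3.66 and 4.75 in stimulated against 2.28, 2.98 and 2.37 in fresh control cells. It rose by 1.03 ± 0.33 in cKO cells (limma adjusted p = 0.0273) and by 1.49 ± 0.33 in control cells (adjusted p = 0.00442), at levels near the minimum for testing.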
